A study of Mus musculus with 6 samples.

Results

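The 10 genes followed here mark endothelial cells in bulk RNA-Seq of the E13.5 mouse cardiac outflow tract (OFT). They were chosen by symbol from general knowledge of endothelial identity, with earlier results of these data known. All 10 of 10 were found among the 28777 genes of the count table. All 10 passed the filter on low counts, as did 28157 genes in all. The comparison was between 6 libraries. The 3 labelled mutant came from embryos heterozygous for a *Notch1* null allele and homozygous null for *Nos3* (*Notch1*+/-; *Nos3*-/-). The 3 labelled wildtype came from littermates with both genes intact. The mice were kept on a C57/BL6J background. Both alleles are carried in the germline, so that no cell type of the mutant embryo is spared. The tissue was cut off below the cushions, and RNA of 3 OFTs was pooled per library, which makes 18 OFTs.

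The endothelium lines every vessel, and its continuation inside the heart, the endocardium, covers the OFT cushions that give rise to the semilunar valves. Endothelial cells are held together by adherens and tight junctions, respond to angiopoietins through Tie receptors, and owe much of their identity to transcription factors of the ETS and SoxF families. Notch1 acts as a receptor in this layer and Nos3 makes nitric oxide there. In bulk tissue, fewer endothelial cells and less RNA per endothelial cell cannot be told apart.

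The deposited values are read counts, with totals between 34729103 and 44387490 per library. They are given here as CPM, counts relative to the total of the library after TMM scaling, always in the order of replicates 1, 2 and 3. *Notch1* had 74.3, 88.2 and 83.6 CPM in the libraries labelled wildtype and 154.9, 160.5 and 139.4 CPM in those labelled mutant, so that it was higher under the label of the heterozygote. *Nos3* had 31.8, 47.2 and 48.1 CPM under the wildtype label and 22.1, 22.0 and 20.4 CPM under the mutant label. For this reason groups are called by their labels. The library numbers of wildtype replicates 2 and 3 are given in opposite order by the titles and the descriptions of the samples, and the titles are followed here. The labels give each library as a separate pool.

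All 10 genes were detected in every library, with between 224 reads (*Sox17* in wildtype replicate 3) and 11196 reads (*Cdh5* in wildtype replicate 2), far above a floor of 3 counts that covers counting error only. The tissue therefore held endothelial transcripts in each of the 6 libraries. The genes together made up 893.3, 1166 and 1187 CPM under the wildtype label (replicates 1, 2 and 3) and 1004, 1014 and 1075 CPM under the mutant label. The 3 mutant sums lay inside the span of the wildtype sums.

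None of the 10 endothelial identity genes passed the test between the labels. edgeR's quasi-likelihood test, with p-values adjusted over all genes by Benjamini-Hochberg and a threshold of 0.05, called 0 of 10. Of all genes tested it called 0.0213%, with 0.0178% as higher and 0.00355% as lower. An unadjusted p under 0.05 was found for 3 of the 10, *Egfl7*, *Sox17* and *Cldn5*, all with higher means under the mutant label, against 8.23% of all genes in that direction. In the other direction there were 0 of 10, against 7.83%. DESeq2's Wald test called 0 of the 10, where it called 1.46% of all genes as higher and 1.2% as lower. With limma-voom 0 of the 10 were called, and only 5 of all genes tested. The median log2 fold change of the 10 genes was −0.033, beside 0.011 over all genes tested. Log2 fold changes were above 0 for 3 of the 10 and for 51.2% of all genes. When TMM was left out and library size alone was used, 8 of the 10 were above 0 and their median was 0.076, while the median of all genes moved to 0.11.

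**Figure D1:**
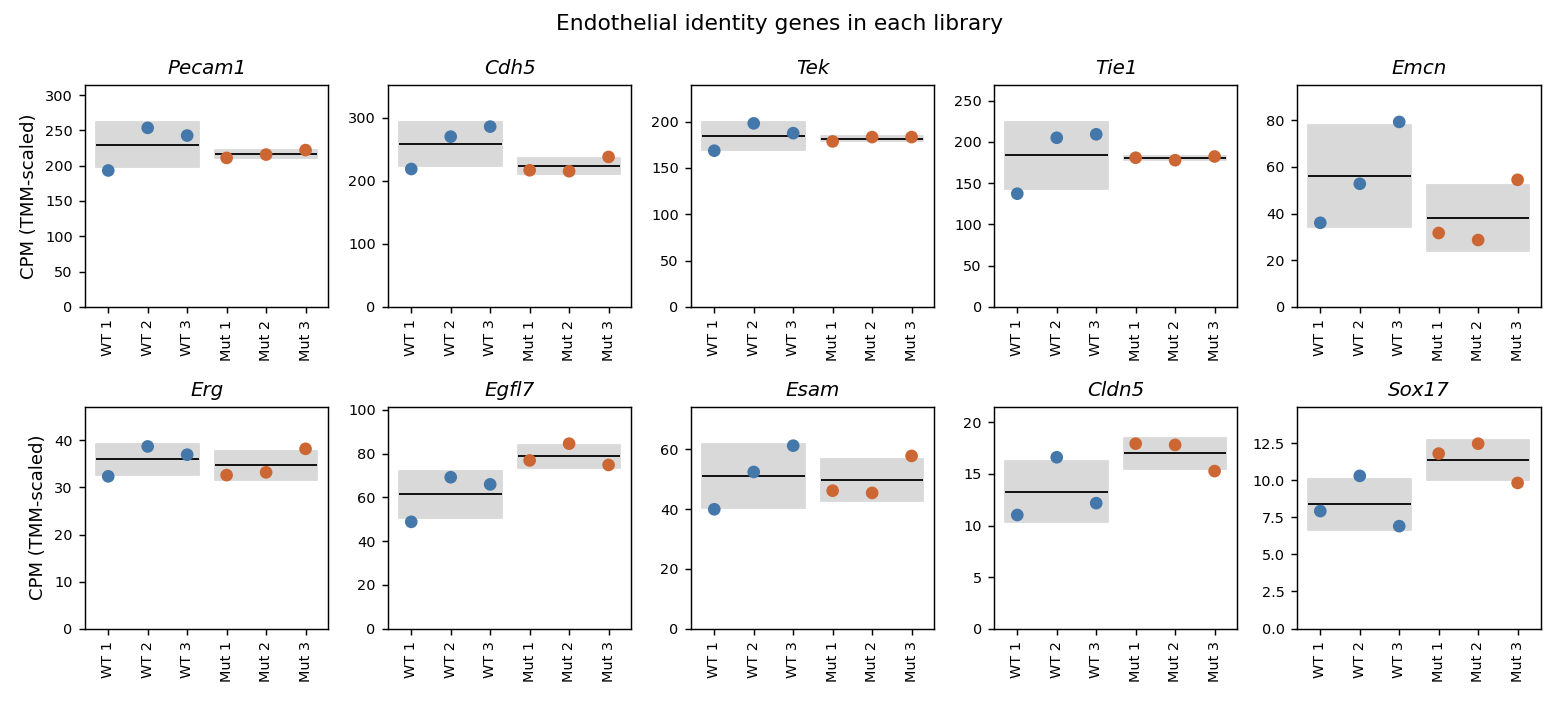
CPM scaled by TMM in the 6 libraries for each of the 10 genes, with each axis starting at 0. Points are libraries (WT, wildtype label; Mut, mutant label), lines are group means and grey bands are 1 SD (n = 3). The groups overlap in every panel but that of *Egfl7*, and wildtype replicate 1 is the lowest library for 7 of the 10 genes. The share of all genes lowest in that library was not computed.

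*Cdh5* (ENSMUSG00000031871, chromosome 8 of mm10 from 104101625 to 104144511) encodes VE-cadherin, the cadherin of endothelial adherens junctions. It had 218.4, 269.7 and 285.6 CPM under the wildtype label and 216.4, 214.9 and 237.5 CPM under the mutant label. Wildtype replicates 2 and 3 stood above the rest, and wildtype replicate 1 lay among the mutant libraries. The log2 fold change of *Cdh5* was −0.21 (standard error 0.12, 95% interval −0.47 to 0.05, adjusted p = 0.398 from edgeR's test). Without wildtype replicate 1 it was −0.32 and called (adjusted p = 0.043 from edgeR's test, in a range of 0.043 to 0.752 over the alternative settings), in a fit that called 5.3% of all genes as lower. Without wildtype replicate 3 it was −0.13 (adjusted p = 0.739 from edgeR's test), and with library size alone −0.10.

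*Pecam1* (ENSMUSG00000020717, chromosome 11 from 106654217 to 106750628) encodes CD31, an immunoglobulin-family adhesion molecule that is also found on platelets and some leukocytes. It had 193.2, 253.6 and 242.7 CPM under the wildtype label and 211.0, 215.7 and 222.1 CPM under the mutant label. The mutant libraries lay within the wildtype span, and the log2 fold change was −0.09 (95% interval −0.34 to 0.17, adjusted p = 0.752 from edgeR's test). *Esam* (ENSMUSG00000001946, chromosome 9 from 37528078 to 37538319) encodes an adhesion molecule of endothelial tight junctions and platelets. It had 39.9, 52.4 and 61.2 CPM under the wildtype label and 46.2, 45.4 and 57.8 CPM under the mutant label, again within the wildtype span. Its log2 fold change was −0.04 (95% interval −0.38 to 0.30, adjusted p = 0.930 from edgeR's test).

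*Cldn5* (ENSMUSG00000041378, chromosome 16 from 18776847 to 18778262) encodes the main claudin of endothelial tight junctions. It had 11.02, 16.6 and 12.2 CPM under the wildtype label and 17.9, 17.8 and 15.3 CPM under the mutant label. Only wildtype replicate 2 reached into the mutant range, above mutant replicate 3. The log2 fold change of *Cldn5* was 0.36 (standard error 0.16, 95% interval 0.01 to 0.71, unadjusted p = 0.046 and adjusted p = 0.304 from edgeR's test). It was 0.24 without wildtype replicate 1 and 0.55 without wildtype replicate 2.

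*Emcn* (ENSMUSG00000054690, chromosome 3 from 137341067 to 137432185) encodes endomucin, a sialomucin of the endothelial surface that is abundant on veins, capillaries and endocardium. It varied most of the 10 genes. The wildtype libraries had 36.1, 52.8 and 79.3 CPM, and the mutant libraries 31.7, 28.7 and 54.5 CPM. Wildtype replicate 3 was highest and mutant replicate 2 lowest, and mutant replicate 3 exceeded wildtype replicates 1 and 2. The log2 fold change was −0.55 (standard error 0.28, 95% interval −1.17 to 0.08, adjusted p = 0.365 from edgeR's test). Leaving out wildtype replicate 3 gave −0.21, and leaving out mutant replicate 3 gave −0.89. Blocking on the title numbers, which were not taken as pairing, gave a call for *Emcn* alone of the 10, in a fit that called 3.18% of all genes as higher and 2.42% as lower.

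The Tie receptors are a pair of related tyrosine kinases. *Tek* encodes Tie2, the receptor of the angiopoietins, and *Tie1* a partner receptor with no established high-affinity ligand of its own. *Tek* (ENSMUSG00000006386, chromosome 4 from 94739289 to 94874976) had 168.5, 198.0 and 187.4 CPM under the wildtype label and 178.5, 183.2 and 183.2 CPM under the mutant label. *Tie1* (ENSMUSG00000033191, chromosome 4 from 118471191 to 118490061) had 137.1, 204.9 and 209.1 CPM and 180.7, 177.7 and 182.2 CPM in the same order. For both receptors the mutant libraries lay close together and inside the wildtype span, and the spread of *Tie1* under the wildtype label came from a low wildtype replicate 1. The log2 fold changes were −0.02 for *Tek* (95% interval −0.24 to 0.19) and −0.03 for *Tie1* (95% interval −0.35 to 0.30), with adjusted p of 0.932 and 0.949 from edgeR's test. As linear folds these intervals run from 0.848 to 1.14 for *Tek* and from 0.783 to 1.23 for *Tie1*.

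*Erg* (ENSMUSG00000040732, chromosome 16 from 95359169 to 95586593), an ETS factor that maintains endothelial gene expression, had 32.4, 38.7 and 37.0 CPM under the wildtype label and 32.6, 33.2 and 38.2 CPM under the mutant label. The groups covered nearly the same range, with a log2 fold change of −0.05 (95% interval −0.29 to 0.19, adjusted p = 0.846 from edgeR's test). *Sox17* (ENSMUSG00000025902, chromosome 1 from 4490931 to 4497354), a SoxF factor known for its part in arterial identity, had 7.92, 10.3 and 6.90 CPM under the wildtype label and 11.8, 12.5 and 9.81 CPM under the mutant label. Wildtype replicate 2 was above mutant replicate 3, and otherwise the mutant libraries were higher. *Sox17* had the highest log2 fold change of the 10, 0.44 (standard error 0.17, 95% interval 0.06 to 0.81, unadjusted p = 0.026 and adjusted p = 0.262 from edgeR's test). A transcript on the opposite strand, Gm37587, shares 16.8% of the exon bases of *Sox17* and had 10 reads over all libraries.

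*Egfl7* (ENSMUSG00000026921, chromosome 2 from 26580014 to 26593120) encodes a protein that endothelial cells secrete into the matrix of forming vessels. The wildtype libraries had 48.8, 69.2 and 65.9 CPM, and the mutant libraries 76.9, 84.6 and 74.8 CPM. All mutant libraries were above all wildtype libraries (exact permutation, two-sided, p = 0.1, below which 3 against 3 cannot go), as were 10.7% of all genes tested, and *Egfl7* was 1 of 10 among the endothelial genes. The log2 fold change was 0.36 (standard error 0.13, 95% interval 0.07 to 0.65, unadjusted p = 0.019 and adjusted p = 0.243 from edgeR's test), and 0.22 without wildtype replicate 1. *Egfl7* lies 63.4 kb from *Notch1*, the targeted gene on the same chromosome. *Agpat2*, on the opposite strand, shares 1.79% of the exon bases of *Egfl7*, with 3518 reads over all libraries. Gm20532, annotated as protein coding on the same strand, shares 7.37% of them and has no row in the count table. Whether the counting used the strand is not given in the sources used here, so reads in such shared stretches cannot be assigned. *Egfl7* is also the host of miR-126, a microRNA of endothelial cells, whose hairpin has no row in the count table. Its mature form is shown for the position of the host gene, with the seed (bases 2 to 8) in capitals, from RefSeq on GRCm38.p6, chr2:26591402-26591423, plus strand.
mmu-miR-126a-3p: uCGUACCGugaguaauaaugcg

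**Figure D2:**
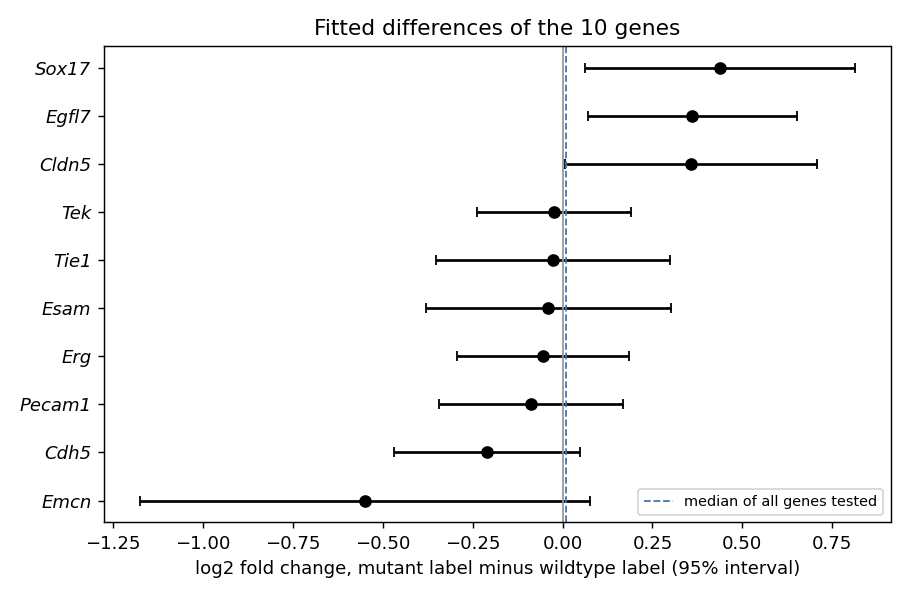
Fitted log2 fold change of each gene (mutant label minus wildtype label) with its 95% interval from edgeR's fit of all genes, not adjusted for the number of genes. The intervals of *Sox17*, *Egfl7* and *Cldn5* lie above 0 and those of the other 7 genes include 0. The dashed line marks the median of all genes tested, 0.011.

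Sequence before the start site was read for the genes above, because members of the ETS and SoxF families bind many endothelial promoters. RefSeq promoter windows on GRCm38.p6 were found for 6 of the 10 genes, 10 windows in all, and none were found for *Pecam1*, *Cdh5*, *Esam* and *Sox17*. In the 250 bases before each start, both strands were searched for AGGAAG, an ETS core. It was present in 5 of 10 windows, belonging to *Egfl7*, *Emcn*, *Tie1* and *Erg*, and in 29.5% of 32851 windows of the same length over all genes. The SOX motif ATTGTT was present in the windows of *Emcn*, *Tek* and *Erg*, and in 9.42% of all windows. The Notch-associated RBPJ motif GTGGGAA was found in the window of *Tie1*, of whose 250 bases 212 lie in annotated exons, and in 5.42% of all windows. Shown here are windows of the genes with the most negative and 2 of the most positive log2 fold changes and of a Tie receptor, each from 5′ to 3′ and ending before any annotated exon, with ETS cores in capitals (AGGAAG, or CTTCCT where the match is on the other strand).
Emcn, chr3:137340828-137341066, plus strand: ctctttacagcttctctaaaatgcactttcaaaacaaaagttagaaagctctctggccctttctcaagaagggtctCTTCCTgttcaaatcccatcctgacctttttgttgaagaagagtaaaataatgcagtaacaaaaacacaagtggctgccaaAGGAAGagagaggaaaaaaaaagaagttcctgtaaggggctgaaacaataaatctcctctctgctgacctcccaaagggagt
Egfl7, chr2:26583615-26583863, plus strand: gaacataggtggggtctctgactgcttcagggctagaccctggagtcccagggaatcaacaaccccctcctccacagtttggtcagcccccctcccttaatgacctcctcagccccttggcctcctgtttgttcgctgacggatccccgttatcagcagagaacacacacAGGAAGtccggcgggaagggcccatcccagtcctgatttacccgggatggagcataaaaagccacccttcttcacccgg
Cldn5, chr16:18776597-18776846, plus strand: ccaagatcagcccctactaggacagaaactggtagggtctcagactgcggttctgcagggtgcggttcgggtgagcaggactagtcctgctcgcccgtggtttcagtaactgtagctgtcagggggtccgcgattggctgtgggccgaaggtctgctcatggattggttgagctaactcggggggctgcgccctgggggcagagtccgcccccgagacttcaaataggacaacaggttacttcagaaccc
Tek, chr4:94739039-94739288, plus strand: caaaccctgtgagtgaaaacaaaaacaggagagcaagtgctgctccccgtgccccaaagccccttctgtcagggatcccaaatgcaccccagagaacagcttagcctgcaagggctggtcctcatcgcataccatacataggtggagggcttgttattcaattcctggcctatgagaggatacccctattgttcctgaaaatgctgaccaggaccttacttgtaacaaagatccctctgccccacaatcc
The *Emcn* window held 2 ETS cores, 174 and 93 bases before the start, and that of *Egfl7*, at the second of 3 starts, held 1, 80 bases before it. Those of *Cldn5* and *Tek* held 0. The windows at the other starts of *Egfl7*, not shown, held 3 cores at the first (216, 89 and 49 bases before it) and 0 at the third. The core of *Erg* lay before a start 127245 bases from the annotated start of the gene. Of the genes with the core *Egfl7* had a log2 fold change above 0 and *Emcn*, *Tie1* and *Erg* below it, and of those without it *Cldn5* was above and *Tek* below. A match of letters is not a bound site.

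Levels of different genes were compared as CPM per kilobase of merged exons. Over the 6 libraries *Cdh5* was highest, with 57.2 ± 7.24 CPM per kilobase (SD, n = 6), and above *Tek* in 6 of 6 libraries. *Tek* (38.9 ± 2.07), *Tie1* (37.0 ± 5.22) and *Pecam1* (35.8 ± 3.53 CPM per kilobase) came next and differed by less than their spread between libraries. Within libraries *Tek* was above *Tie1* in 5 of 6, and *Tie1* above *Pecam1* in 5 of 6. *Egfl7* (19.6 ± 3.42) and *Esam* (17.6 ± 2.83 CPM per kilobase) formed a lower pair, also within their spread, and *Egfl7* was the higher in 4 of 6 libraries. Their order depended on the label, with means of 17.1 for *Egfl7* and 17.9 CPM per kilobase for *Esam* under the wildtype label and 22.0 and 17.4 under the mutant label. *Cldn5* (10.7 ± 2.07), *Erg* (10.2 ± 0.847) and *Emcn* (8.72 ± 3.53 CPM per kilobase) overlapped. *Cldn5* was above *Erg* in 3 of 6 libraries, and *Erg* above *Emcn* in 5 of 6. Under the wildtype label *Cldn5* had the lowest mean of these (9.37 CPM per kilobase) and under the mutant label the highest (12.02). *Sox17* was lowest, at 2.07 ± 0.451 CPM per kilobase, and below *Emcn* in 6 of 6 libraries.

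The spread between libraries had a shared part. On the log2 scale the median deviation of the 10 genes from their own 6-library means was −0.29, 0.15 and 0.10 under the wildtype label and −0.05, −0.03 and 0.03 under the mutant label. Wildtype replicate 1 was thus low for most of the genes. Without it the median log2 fold change of the 10 genes was −0.16, and without wildtype replicate 3 it was 0.03. Another 54 endothelial genes were listed by function from general knowledge, also with earlier results known. Their median deviations were −0.21, 0.03 and 0.13 under the wildtype label and −0.04, −0.06 and 0.12 under the mutant label. A low wildtype replicate 1 was not particular to endothelial genes. Its median deviation was −0.39 for Epicardial, −0.38 for Erythroid and −0.27 for Macrophage and leukocyte markers. For Myocardial and Cushion mesenchyme markers it was 0.03 and 0.30. The 5 genes outside the list whose profile over the 6 libraries was nearest to the median profile of the 10 were *Tcte2*, *Abca3*, *Poll*, *Tmem208* and *Mapk3*. Their root mean square differences from it were 0.026 to 0.039 log2 units. *Pecam1* lay 0.045 from the same profile, and *Emcn* 0.44, the farthest of the 10.

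**Figure D3:**
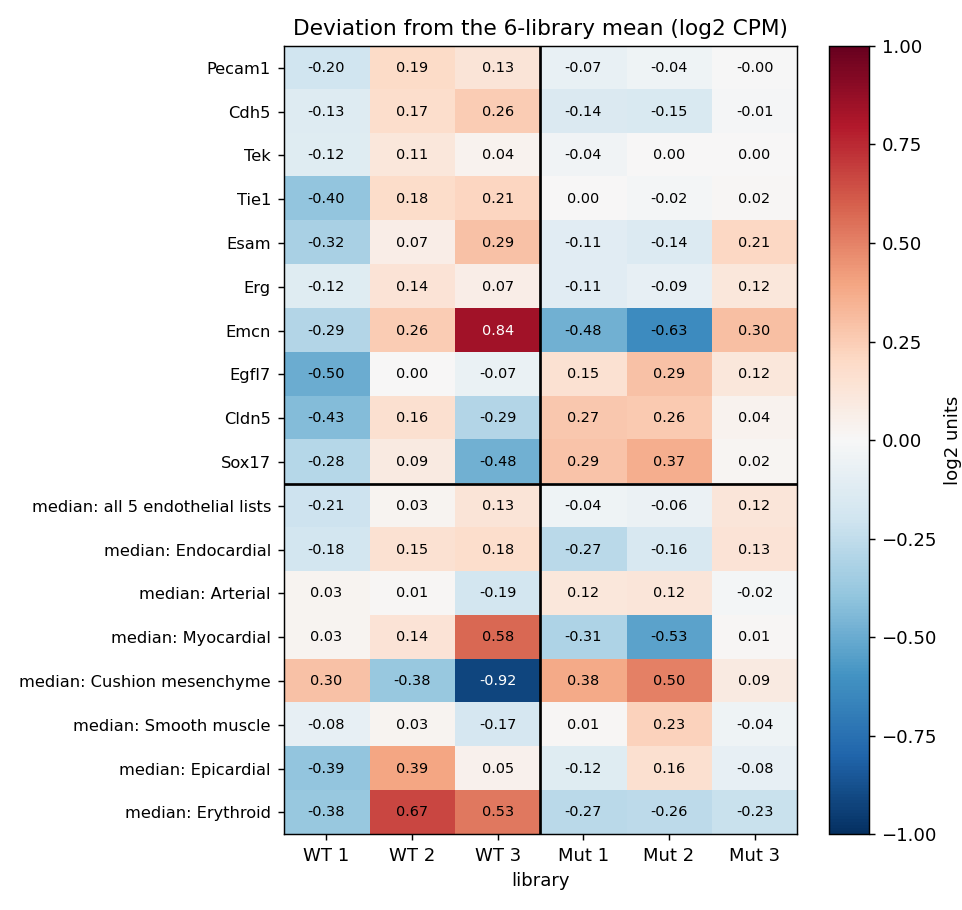
Deviation of log2 CPM from the 6-library mean in each library (WT, wildtype label; Mut, mutant label), for the 10 genes above the line and as medians of marker lists below it. Wildtype replicate 1 is below 0 for all 10 genes. *Emcn* is highest in wildtype replicate 3 (0.84) and lowest in mutant replicate 2 (−0.63), as is the Myocardial median (0.58 and −0.53).

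Each gene was also set against the geometric mean of the other 9 in the same library. These are descriptions, and each depends on the other genes. *Cdh5* was 2.23, 2.11 and 2.24 log2 units above the others under the wildtype label and 1.94, 1.92 and 1.97 under the mutant label. The mutant libraries lay 0.25 lower on average without overlap. *Egfl7* was −0.16, −0.06 and −0.10 log2 units from the others under the wildtype label and 0.29, 0.43 and 0.12 under the mutant label, also without overlap. *Pecam1* differed by −0.11 between the groups, with 2.03, 2.01 and 1.98 against 1.90, 1.92 and 1.86 log2 units. For the other 7 genes the groups overlapped. When every gene was set against the endothelial genes in this way, the mutant libraries were all above in 2.65% of the genes tested and all below in 11.2%. Among the 16655 genes that averaged 1 CPM or more these shares were 2.47% and 16.8%, beside 1 and 2 of the 10.

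**Figure D4:**
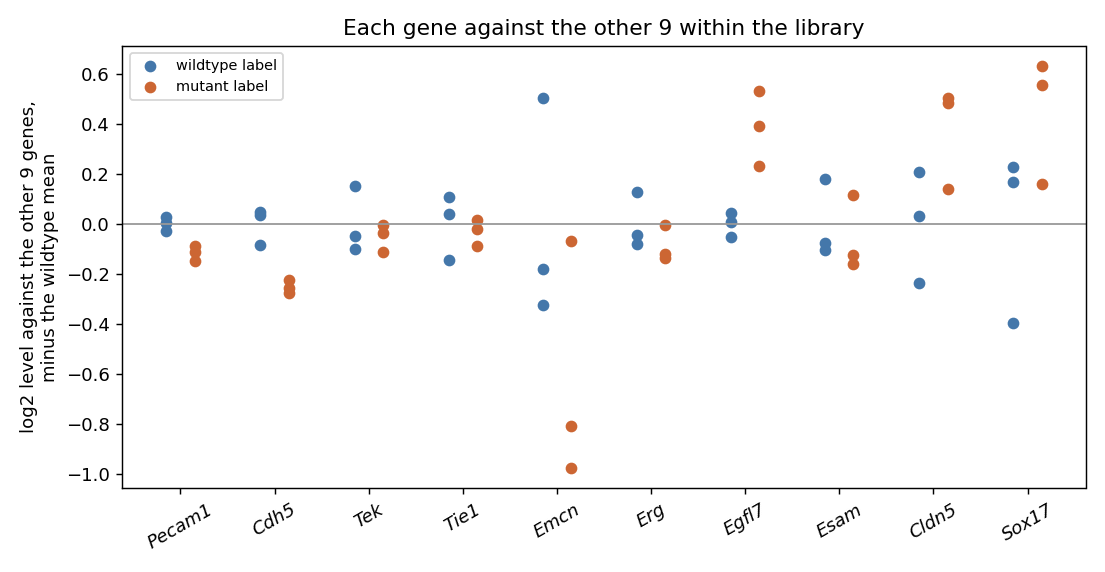
Log2 level of each gene against the geometric mean of the other 9 genes in the same library, with the wildtype mean of each gene subtracted. Points are libraries by label (n = 3 each). The labels do not overlap for *Egfl7* (mutant above, as for 2.65% of all genes set against the endothelial genes) and for *Pecam1* and *Cdh5* (mutant below, as for 11.2%).

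Markers of other tissues also varied between these libraries. The 10 Myocardial markers all had log2 fold changes below 0 (median −0.52), with summed levels of 26490 to 39730 CPM under the wildtype label and 17560 to 26110 CPM under the mutant label. All 10 Cushion mesenchyme markers had log2 fold changes above 0 (median 0.59), with summed levels from 4042 to 8025 CPM under the wildtype label and from 7555 to 10040 CPM under the mutant label. Without wildtype replicate 3 the medians were −0.33 and 0.37, with 1 of 10 Myocardial markers above 0, and without wildtype replicate 1 they were −0.60 and 0.97. edgeR's test called 0 of the markers in either list, and 8 of each list had an unadjusted p under 0.05. DESeq2's Wald test called 4 Myocardial and 1 Cushion mesenchyme marker. Over all genes tested, an unadjusted p under 0.05 was found for 7.83% as lower and 8.23% as higher. DESeq2's Wald test called 1.2% and 1.46% of them in the same order. *Cdh5* and *Emcn* were highest in wildtype replicate 3 and lowest in mutant replicate 2, as were 9 of 10 Myocardial markers and 13.2% of the 16655 genes that averaged 1 CPM or more. *Sox17* had the opposite order, as did 8 of 10 Cushion mesenchyme markers and 10.1% of those genes. The part of these tissues in the values of *Emcn*, *Cdh5* and *Sox17* was not tested. *Pecam1* and *Esam* are also platelet genes. The 8 Megakaryocyte and platelet markers, all with log2 fold changes below 0 (2 of 8 were above 0 with library size alone), had summed levels of 12.01 to 23.5 CPM under the wildtype label and 12.4 to 14.9 CPM under the mutant label. The 10 Macrophage and leukocyte markers summed to 102.9 to 163.9 CPM and 117.5 to 136.8 CPM in the same order, 5 being above 0 and 5 below. Their part in *Pecam1* and *Esam* was not tested.

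Other endothelial genes were looked up in lists written from general knowledge, with earlier results of these data known. Of the 54 genes of 5 lists, 27 had log2 fold changes above 0 and 27 below, with a median of −0.001. With library size alone 40 of the 54 were above 0. edgeR's test called 0 of the 54 and limma-voom called 0, where they called 6 and 5 of all genes tested. DESeq2's Wald test called 1 as lower, *Gpr182*, against 1.2% of all genes, and gave no adjusted p for *Angpt4* and *Etv2*. An unadjusted p under 0.05 was found for 7 as higher and 5 as lower, against 8.23% and 7.83% of all genes tested. The mutant libraries were all above the wildtype libraries for 10 of the 54, 18.5%, and all below for 1, against 10.7% and 8.94% of all genes tested.

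Around the Tie receptors, *Ptprb*, the phosphatase that restrains Tie2 and VE-cadherin signaling, had 119.7, 108.6 and 70.5 CPM under the wildtype label and 142.2, 152.5 and 136.3 CPM under the mutant label. The mutant libraries were higher without overlap (log2 fold change 0.53, adjusted p = 0.216 from edgeR's test). The log2 fold changes of the ligands were −0.38 for *Angpt1*, which activates Tie2, and 0.70 for *Angpt2*, which can oppose it (adjusted p = 0.284 and 0.291 from edgeR's test). Both ligand genes had overlapping groups. *Angpt4* was near the limit of detection (0.172 CPM on average).

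All 14 of the other endothelial transcription factors had log2 fold changes above 0, with a median of 0.13, as had 51.2% of all genes tested. But 11 did after a correction for GC content and length and 9 to 14 with 1 library left out. The 14 ran from 0.002 to 1.78, the highest being *Etv2*, near the limit of detection. *Erg* was at −0.05. None was called by edgeR's test (0 of 14). An unadjusted p under 0.05 as higher was found for 8.23% of all genes and for 1 of the 14. It was *Tal1*, a hematopoietic and endothelial bHLH factor (0.26, adjusted p = 0.307 from edgeR's test). *Mecom* (0.51, and 1.11 without wildtype replicate 1), the ETS factor *Elk3* (0.13) and *Gata2* (0.16) followed by p. *Fli1*, the closest relative of *Erg*, had 0.05, and the SoxF relatives of *Sox17* had 0.15 (*Sox18*) and 0.14 (*Sox7*). *Etv2*, an early ETS factor, averaged 0.045 CPM and is not interpreted.

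Of 15 junction and surface genes, 4 had log2 fold changes above 0 and 11 below (median −0.06), and 9 were above 0 with library size alone. *Jam2*, a junctional adhesion molecule, had 0.41 without overlap, from a mean of 27.3 to 36.4 CPM (adjusted p = 0.209 from edgeR's test). *Mmrn2*, an endothelial matrix protein, had −0.65 and *Plvap*, which forms the diaphragms of fenestrae, −0.74, each with overlapping groups (adjusted p = 0.233 and 0.296 from edgeR's test). *Cd34* had 0.24. Among the 10 receptors, *Gpr182* had −0.82, *S1pr1*, a sphingosine-1-phosphate receptor, −0.40, *Calcrl*, the adrenomedullin receptor, 0.34, and *Acvrl1*, the endothelial BMP receptor ALK1, 0.35 (adjusted p = 0.213 to 0.249 from edgeR's test). *Gpr182* was called by DESeq2's Wald test (−0.82, adjusted p = 0.0345). Of the 11 GTPase and cytoskeletal regulators, *Rhoj* (0.33), *Arap3* (0.21) and *Shank3* (0.22) had mutant libraries above all wildtype libraries. Adjusted p were 0.213, 0.401 and 0.442 in the same order from edgeR's test. Over all genes tested, 10.7% had mutant libraries above all wildtype libraries. *Cyyr1* had −0.12 and the list median was −0.02, with 4 of 11 above 0 and 10 of 11 with library size alone. Without wildtype replicate 1, edgeR called 6 of the 54 genes, *Ptprb*, *Mecom* and *Jam2* as higher and *Plvap*, *Mmrn2* and *Gpr182* as lower. That fit called 4.15% of all genes as higher and 5.3% as lower.

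Genes of endothelial subtypes were looked up in the same way. The 5 Endocardial genes ran from *Adgrg6* (log2 fold change −0.91, from a mean of 55.6 to 29.6 CPM) to *Nfatc1* (0.40, from 52.8 to 69.8 CPM), both without overlap between the groups (adjusted p = 0.181 for each from edgeR's test). DESeq2's Wald test called both (adjusted p = 0.0026 and 0.0226), where it called 1.2% of all genes as lower and 1.46% as higher. Without overlap 1 of the 5 was below and 1 above, against 8.94% and 10.7% of all genes tested. *Npr3*, an endocardial natriuretic peptide receptor, had −0.61 and *Nrg1* 0.18. Of the 10 Arterial genes, *Unc5b* had 0.48 and *Hey2* −0.41, without overlap, and DESeq2's Wald test called both (adjusted p = 0.0238 and 0.0451). The mutant libraries were thus all above for 1 of 10 and all below for 1, against 10.7% and 8.94% of all genes tested. *Bmx* had −0.73 and *Gja5* −0.82, with overlap. edgeR's test called 0 of the 10, with adjusted p of at least 0.194. An unadjusted p under 0.05 was found for 1 as higher and 3 as lower, against 8.23% and 7.83% of all genes. The 4 Venous genes had values from 0.13 to 0.36 (*Nrp2* 0.36, *Aplnr* 0.36, *Ephb4* 0.13, *Nr2f2* 0.16). Of these edgeR's test called 0, with adjusted p of at least 0.217. For 2 of the 4 the unadjusted p was under 0.05 as higher, against 8.23% of all genes. Mutant libraries were all above for 2, against 10.7%. Only 3 of the 4 stayed above 0 with length and GC content corrected for, and likewise without mutant replicate 3. The 5 Lymphatic genes ran from −0.31 (*Pdpn*) to 0.90 (*Ccl21a*), with *Prox1* at −0.23 and *Flt4* at 0.10. Of the 76 endothelial and subtype genes that averaged 1 CPM or more, 16 (21.1%) were highest in wildtype replicate 3 and lowest in mutant replicate 2, as was *Emcn*, and 9 (11.8%) had the opposite order. Over all genes of that level the shares were 13.2% and 10.1%. Of the 16 genes with the order of *Emcn*, those named above were *Plvap*, *Mmrn2*, *Gpr182*, *S1pr1*, *Gja5*, *Bmx*, *Hey2*, *Npr3*, *Adgrg6*, *Angpt1* and *Prox1*. Among the Myocardial markers 9 of 10 had the same order. The listed genes were not checked for expression outside the endothelium. The part of the myocardium in their values was not tested.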

How the data were processed

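Bulk RNA-Seq was analysed in 6 libraries of E13.5 OFT (3 per label). The values are the read counts per gene that the authors deposited, made from stranded, ribosomal RNA-depleted paired-end libraries, aligned with TopHat2 2.1.0 to mm10 and counted on exons with GenomicAlignments, without normalization. The table lists genes with at least 5 reads in all. Names, positions and exon lengths came from GENCODE M21 (mm10), which holds 28723 of 28777 identifiers. Genes with 5 or fewer reads were left out (620), following the study's methods. The others were scaled by TMM and tested with edgeR 4.0.16 (quasi-likelihood test, Benjamini-Hochberg adjustment, R 4.3.3), without covariates. Standard errors are the fold change divided by the root of the F statistic. DESeq2 1.42.0, limma 3.58.1 and other settings, 16 in all, were alternatives. Single genes were compared by exact permutation of log2(CPM + 0.5). Profiles and deviations used log2 CPM with a prior count of 2.

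The 10 genes and all lists were chosen with earlier results of these data known. Named are all 10, up to 4 genes of each endothelial list with the smallest p, *Notch1*, *Nos3* and the 5 nearest profiles among genes with at least 1 CPM. Named outside this rule after their values were seen were *Fli1*, *Sox7*, *Sox18*, *Etv2*, *Agpat2*, Gm20532 and Gm37587. Further marker lists were Smooth muscle (8 genes, median log2 fold change 0.12), Epicardial (8, −0.14), Erythroid (9, −0.56), Neural crest and Schwann (5 of 6 listed, 0.37), Neuronal (6, 0.14) and Liver (6, −4.26, with summed levels of 1.33 to 94.7 CPM under the wildtype label). On simulated counts with 200 changed genes, edgeR recovered 82 of 100 changed 2-fold and 100 of 100 changed 4-fold. It made 10 false calls among 27802 genes. The simulation gave every gene the same dispersion and changed only genes of at least 1 CPM. Genes were drawn independently, without shifts that genes of a library share, so these rates need not hold for the measured libraries. Recovery of changes below 2-fold, such as those of the 10 endothelial identity genes, was not tested. Recovery in the measured libraries was not tested either.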

Additional observations from a re-analysis of the deposited data

How the results depend on the processing

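Each of the 10 genes had at least 224 reads in every library. Of 28157 genes tested edgeR called 6, and DESeq2's Wald test 749 (1.46% as higher and 1.2% as lower). A replicate block on the title numbers gave 1577 calls (3.18% as higher and 2.42% as lower), and the numbers of the descriptions gave 83. The title block with a correction for GC content and length gave 2279 calls, 918 as higher and 1361 as lower. Leaving out 1 library gave 1 to 2593 calls, the highest without wildtype replicate 1 (4.15% as higher and 5.3% as lower). Of the 10 genes 0 were called, but 1 with the title block (*Emcn*, −0.54, adjusted p = 0.0118) and 2 with the block and the correction (*Emcn* and *Cdh5*), and 0 to 1 with 1 library left out (*Cdh5* without wildtype replicate 1). Of the 54 other endothelial genes 0 were called, but DESeq2 called 1 as lower. The title block gave 9 calls among them (4 as higher and 5 as lower), and the block with the correction 12 (5 and 7). With 1 library left out there were 0 to 6. The replicate numbers share no stated litter or day. Deviations from group means correlated at 0.096, 0.159 and 0.420 between same-numbered libraries of the titles. Wildtype replicate 1 correlated best with mutant replicate 2 (0.277), and wildtype replicates 2 and 3 each with their own number. The other differently numbered pairs ran from −0.441 to −0.00712. These values do not settle a pairing, and without a stated one the samples were not taken as paired. With scaling by library size only the log2 fold changes of *Pecam1* (0.0205), *Tek* (0.0825), *Tie1* (0.0838), *Erg* (0.0513) and *Esam* (0.0702) turned positive. With 1 library left out they ran from −0.0855 to 0.0290 for *Tek*, −0.200 to 0.0757 for *Tie1*, −0.130 to 0.00099 for *Erg* and −0.190 to 0.109 for *Esam*. The directions of *Cdh5*, *Emcn*, *Egfl7*, *Cldn5* and *Sox17* held under all 16 alternatives. The causes of these differences were not tested.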
